A study of Homo sapiens with 48 samples.

Results

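NPPB, IFITM1 and FZD5 were 3 genes of a targeted RNA panel whose counts stood high where WA09, a line of human embryonic stem cells, had been driven to endoderm. They were chosen by their read counts in the endoderm libraries, so their endoderm levels are given here as a description, without a test. Every probe carrying one of the 3 symbols was taken, which gave 7 probes of 1113 and 3 genes of 452. NPPB was read by probe 520, IFITM1 by probes 384, 385 and 386, and FZD5 by probes 283, 284 and 285.

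RASL-Seq ligates pairs of short probes on captured polyadenylated RNA and counts the ligated products by sequencing. The 48 libraries came from WA09, a single line. The 4 hESC libraries were undifferentiated and untreated. The 4 ectoderm libraries came from 6 days in Essential 6 medium with 2 inhibitors, LDN-193189 (dose 100 nM) and A83-01 (dose 2 µM). The 4 mesoderm and 4 endoderm libraries each came from 5 days in a commercial kit, the STEMdiff Mesoderm Induction Medium or the STEMdiff Definitive Endoderm Kit. Embryoid bodies, which are free-floating aggregates, were made from 20000 dissociated cells per well in round-bottom plates and kept for 7 days in Essential 6 medium. During the first 24 hours 16 of them (CEPT EB) received CEPT and 16 (Y27 EB) received Y-27632. CEPT is a survival mixture of chroman 1, emricasan, polyamines and trans-ISRIB, and Y-27632 is a small-molecule kinase inhibitor used for cell survival. The labels do not say which libraries came from separate cultures, so p-values measure only the spread between these libraries.

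FZD5 encodes a Frizzled protein, a cell-surface receptor that binds Wnt ligands and passes the signal to beta-catenin and other pathways. IFITM1 encodes a small membrane protein induced by interferons, one of a family that restricts entry of enveloped viruses, and it is also known as a surface protein of pluripotent and primordial germ cells. NPPB encodes the precursor of B-type natriuretic peptide, a hormone secreted mainly by heart muscle that acts on the kidney and on blood vessels. Definitive endoderm forms under Nodal and Wnt signalling and gives rise to the gut, liver, pancreas and lung.

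The places of the probes are shown first, because they set what each count can tell. By RefSeq's gene table (GRCh38.p14), NPPB lies at chr1:11857464-11858945, FZD5 at chr2:207762598-207769906 and IFITM1 at chr11:314040-315272. Positions of probes were read on the GENCODE release 29 transcripts paired with the RefSeq transcripts that name the probes. Probe 520 was at base 640 of the 694-base NPPB transcript, in exon 3 and the 3′ untranslated region. The FZD5 probes 283, 284 and 285 were at bases 4220, 5252 and 6330 of a 6708-base transcript, all in exon 2 and beyond the end of the coding part at base 2312. IFITM1 probe 384 was at base 301, in exon 1 and upstream of the coding start at base 319. Probes 385 and 386 were at bases 533 and 646, in the coding part of exon 2. The probes' own letters were not used here, so the 50 reference bases from each named position stand in for them. The 2 coding stretches of IFITM1 are shown because one of them is shared with its paralogs.
IFITM1 probe 385, chr11:314950-314999, plus strand: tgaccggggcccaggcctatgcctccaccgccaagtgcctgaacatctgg
IFITM1 probe 386, chr11:315063-315112, plus strand: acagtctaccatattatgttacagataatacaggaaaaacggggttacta
The stretch of probe 385 had 0 mismatches to transcripts of IFITM2 and of IFITM3, which encode the neighbouring family members. With the 50 bases centred on the named position the fewest mismatches were again 0 for both. With the 50 bases ending there they were 1 for IFITM2 and 0 for IFITM3. Over the same 3 placements the stretch of probe 384 had 11 to 24 mismatches and that of probe 386 had 20 to 27. One IFITM2 transcript that runs into the IFITM1 gene was left out of that comparison. Counts of probe 385 may therefore hold reads of IFITM2 and IFITM3 and are uncertain as a measure of IFITM1.

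The 250 bases before the RefSeq gene start of IFITM1 and of FZD5 are shown as regulatory sequence of these members (GRCh38.p14), with motif matches in capitals.
IFITM1, chr11:313790-314039, plus strand: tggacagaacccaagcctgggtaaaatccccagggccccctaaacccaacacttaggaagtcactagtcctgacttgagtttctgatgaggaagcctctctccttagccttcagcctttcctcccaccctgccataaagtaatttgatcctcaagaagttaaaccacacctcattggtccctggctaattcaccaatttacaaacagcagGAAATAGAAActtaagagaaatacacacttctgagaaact
FZD5, chr2:207769907-207770156, minus strand: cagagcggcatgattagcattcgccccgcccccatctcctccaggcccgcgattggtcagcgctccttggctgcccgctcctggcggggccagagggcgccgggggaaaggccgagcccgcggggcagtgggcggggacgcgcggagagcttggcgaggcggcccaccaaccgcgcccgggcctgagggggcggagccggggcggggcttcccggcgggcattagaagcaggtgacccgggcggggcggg
The letters TATAAA (the core promoter box), AGATAA (the motif of GATA factors), ACAATG (the motif of SOX factors), CTTTGA (the motif of TCF and LEF factors), CATTCC (the motif of TEAD factors) and the core of an interferon-stimulated response element (ISRE) were searched on both strands. Only the last was found, in IFITM1, from 40 to 31 bases before the RefSeq start, and it was in 3.02% of 35116 promoters of that length. The GENCODE transcript used for the probe positions has base 301 at chr11:314153, in exon 1. It therefore starts upstream of the RefSeq start at chr11:314040. By that transcript the match and part of the stretch shown lie inside exon 1. The other 5 were in 10.7%, 9.17%, 9.29%, 11.2% and 11.9% of promoters, in the order given. Neither FZD5 nor IFITM1 held any of those 5. The FZD5 stretch was 76.8% G and C with 30 CG pairs, and the IFITM1 stretch was 45.2% with 0 CG pairs, beside a median of 58.0% over all promoters in the table.

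Levels are given as CPM, reads of a probe scaled to a common library size by factors set over all 48 libraries. Library totals ran from 379810 reads (Y27 EB replicate 15) to 5577868, with a median of 3583316. Probes differ in efficiency, so levels are compared between groups for one probe and not between probes or genes. The endoderm label was borne out by its markers: all 9 definitive endoderm genes of the list on the panel, among them SOX17, FOXA2, GATA6 and EOMES, had their highest mean in that group. SOX17 was at 2612 ± 405 CPM there (SD, n = 4) and at 0 in hESC. NANOG, a pluripotency factor, was at 73.3 ± 17.5 CPM in endoderm against 1996 ± 187 in hESC. TDGF1 of the same pluripotency list was higher in endoderm, at 8082 ± 239 CPM against 2487 ± 247. LIN28A was also higher, at 7378 ± 244 CPM against 5145 ± 284. The other genes of that list were lower. Its summed level was 16895 ± 540 CPM in endoderm and 18767 ± 633 in hESC. The samples are bulk lysates, so fewer cells of a type and less RNA per cell cannot be told apart in any of the comparisons.

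NPPB separated the endoderm libraries from every other library by a wide margin. Probe 520 read 16910, 15646, 13989 and 20435 CPM in endoderm replicates 1 to 4, with a mean of 16745 ± 2735 CPM (SD, n = 4). It had 0 reads in all 4 hESC libraries, which allows up to 3 reads per library, a mean of 1.44 CPM. The endoderm mean was at least 11651-fold higher than that limit. In ectoderm the 4 libraries read 8.21, 9.50, 9.26 and 34.0 CPM, so that replicate 4 stood above the other 3. In mesoderm they read 5.59, 6.73, 2.64 and 7.04 CPM. The endoderm mean was 1099 times the ectoderm mean and 3045 times the mesoderm mean. CEPT EB libraries ran from 0 to 76.6 CPM with a median of 8.12, and Y27 EB libraries from 0 to 17.4 CPM with a median of 2.39. By mean level the order was endoderm, ectoderm, CEPT EB, mesoderm, Y27 EB and hESC, and only endoderm did not overlap its neighbour. The probe was the 23rd highest of the panel in endoderm and took 1.12 ± 0.158% of all reads there (SD, n = 4). Of the heart muscle list, TNNT2 and MYH6, which encode proteins of the contractile apparatus, were at 0.222 ± 0.260 and 0.123 ± 0.246 CPM in endoderm (SD, n = 4). ISL1 of that list was at 14.9 ± 2.40 CPM in endoderm and 0.235 ± 0.281 in hESC. The 6 genes of the list summed to 16.7 ± 2.91 CPM in endoderm and 4.37 ± 1.11 in hESC.

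IFITM1 was plentiful in hESC, mesoderm and endoderm and lower in ectoderm and in embryoid bodies. Probe 386, its strongest probe, read 55498, 57834, 54897 and 63141 CPM in endoderm, where it was the 3rd highest probe of the panel. The hESC libraries read 25525, 21723, 19359 and 21577 CPM and the mesoderm libraries 22297, 21937, 20565 and 22487 CPM, so these groups overlapped. Ectoderm was lower, at 4761, 4713, 4469 and 5600 CPM. CEPT EB libraries ran from 532 to 12412 CPM with a median of 3084, and Y27 EB libraries from 250.4 to 4576 CPM with a median of 1216. Endoderm did not overlap any other group for this probe. Probe 384 gave the same places to endoderm, ectoderm and the embryoid bodies, with 23823 ± 1133 CPM in endoderm, 8815 ± 731 in hESC and 2335 ± 221 in ectoderm (SD, n = 4). Probe 385, whose reference stretch is shared with IFITM2 and IFITM3, had 1254 ± 174 CPM in endoderm, 554 ± 30.9 in mesoderm and 349 ± 49.4 in hESC. Its mesoderm and hESC libraries did not overlap, unlike those of probes 384 and 386.

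FZD5 was highest in endoderm, lower in ectoderm and lowest in mesoderm. Probe 285 read 27603, 26365, 24569 and 35933 CPM in endoderm and 2434, 2651, 2356 and 2509 CPM in ectoderm. The hESC libraries lay within 409.5 to 420.0 CPM, and the mesoderm libraries read 12.9, 9.48, 10.1 and 11.1 CPM. CEPT EB libraries ran from 19.0 to 134.8 CPM with a median of 49.3, and Y27 EB libraries from 14.2 to 52.2 CPM with a median of 25.5. The order was endoderm, ectoderm, hESC, CEPT EB, Y27 EB and mesoderm, and only the embryoid body arms overlapped as neighbours. The endoderm mean of 28618 ± 5034 CPM was 11.5 times the ectoderm mean, 68.8 times the hESC mean and 2622 times the mesoderm mean (SD, n = 4). Probes 283 and 284 were weaker, with endoderm means of 330 ± 51.3 and 851 ± 715 CPM, and their endoderm means were 73.3 and 68.1 times their hESC means. The ratios of probes 283 and 285 to hESC were thus similar. That of probe 284 leaned on endoderm replicate 3, at 1917 CPM beside 587, 406 and 493 CPM in replicates 1, 2 and 4. Against ectoderm the probes differed more, with endoderm means 7.61 times the ectoderm mean for probe 283 and 6.04 times for probe 284, beside 11.5 for probe 285. Probe 284 was also highest in replicate 3 of ectoderm.

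**Figure D1:**
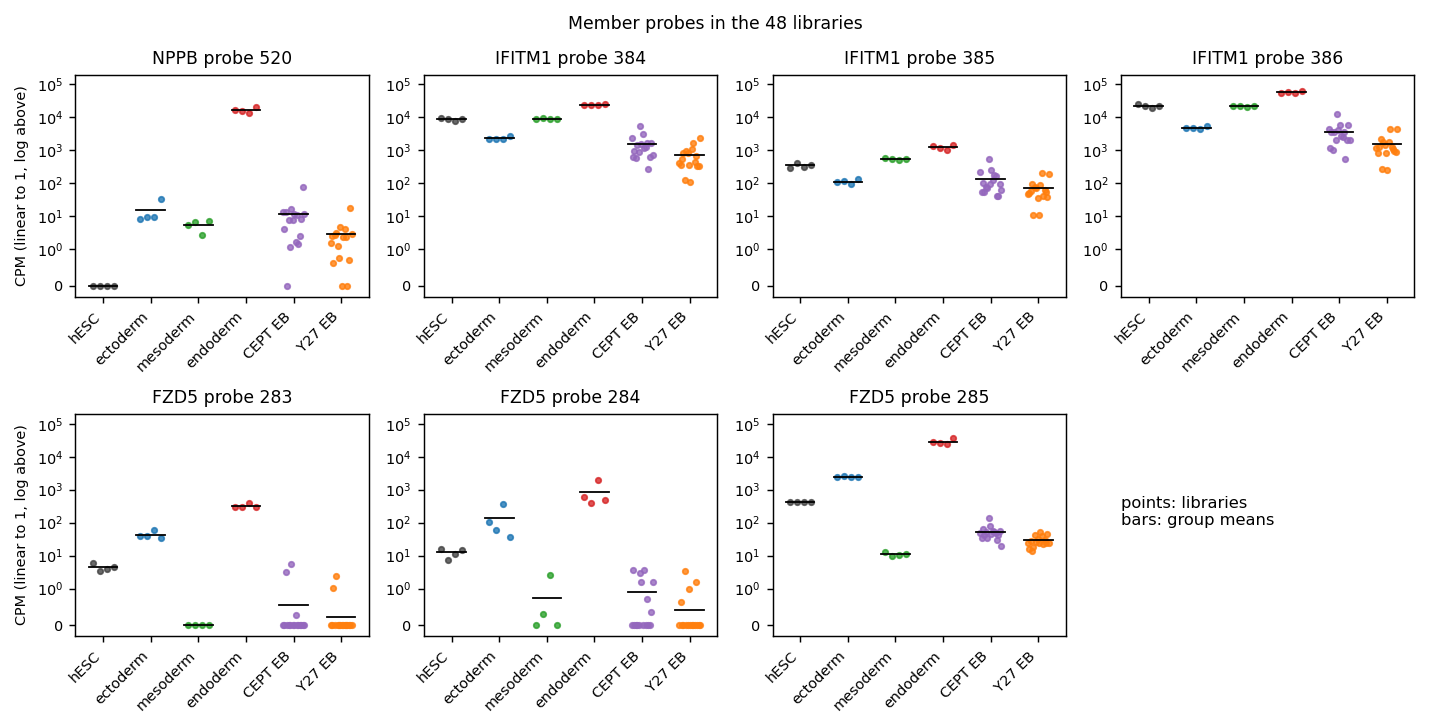
CPM of the 7 probes (vertical axis, linear up to 1 and logarithmic above) in the 6 groups (horizontal axis); points are libraries and bars are group means. Endoderm is the highest group for every probe, NPPB is at 0 in hESC, and FZD5 probe 285 is lowest in mesoderm, at 9.48 to 12.9 CPM.

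The members together took 8.70 ± 0.596% of all reads in endoderm, against 2.92 ± 0.0758% in hESC and 3.05 ± 0.101% in mesoderm (SD, n = 4 each). IFITM1 alone took 5.58 ± 0.202% in endoderm and 2.88 ± 0.0784% in hESC. As log2 ratios from the fitted model, endoderm was above hESC by 6.03, 5.93 and 5.93 for FZD5 probes 283, 284 and 285 and by 1.27, 1.67 and 1.23 for IFITM1 probes 384, 385 and 386. LEFTY2, a Nodal antagonist, stood at 413060 ± 21965 CPM in endoderm, and the part of so abundant a gene in the scaling was not tested. Over the alternatives run, the log2 ratio of probe 386 lay between 0.88 and 1.82 and that of FZD5 probe 285 between 5.58 and 6.53.

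The probes of 1 gene did not keep a fixed proportion to each other. IFITM1 probe 384 gave 40.1 ± 1.69% of the reads of probe 386 in hESC, 41.2 ± 0.809% in endoderm and 47.8 ± 0.686% in ectoderm (SD, n = 4). Probe 385 gave 1.60 ± 0.300% of the reads of probe 386 in hESC, 2.54 ± 0.0919% in mesoderm, 4.05 ± 1.72% in CEPT EB (n = 16) and 4.68 ± 0.738% in Y27 EB (n = 16). A two-sided exact permutation test of that share gave p = 0.000206 for Y27 EB against hESC, with an adjusted p of 0.00206 over the 10 ratio comparisons made. For CEPT EB against hESC it gave p = 0.0103 (adjusted 0.0516), and for mesoderm and for ectoderm p = 0.0286 (adjusted 0.0571), the smallest that 4 against 4 allows. These ratio comparisons were added after the values had been seen. Probe 385, whose reference stretch matched the paralogs, took a larger share in the Y27 embryoid bodies, where IFITM1 itself was low. The part of paralog reads in that share was not tested. For probe 384, without a close match, the share in ectoderm against hESC had p = 0.0286 by the same exact test (adjusted 0.0571). In the other comparisons of the probe 384 share the libraries overlapped. FZD5 probe 284 varied with replicate 3: it gave 15.3% of the reads of probe 285 in ectoderm replicate 3 and 7.80% in endoderm replicate 3, beside 1.42 to 4.40% and 1.37 to 2.13% in the other libraries of those groups. Of 365 probes at 50 CPM or more in both groups, FZD5 probe 284 was the single one to exceed the other libraries at least 2-fold in replicate 3 of both.

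**Figure D2:**
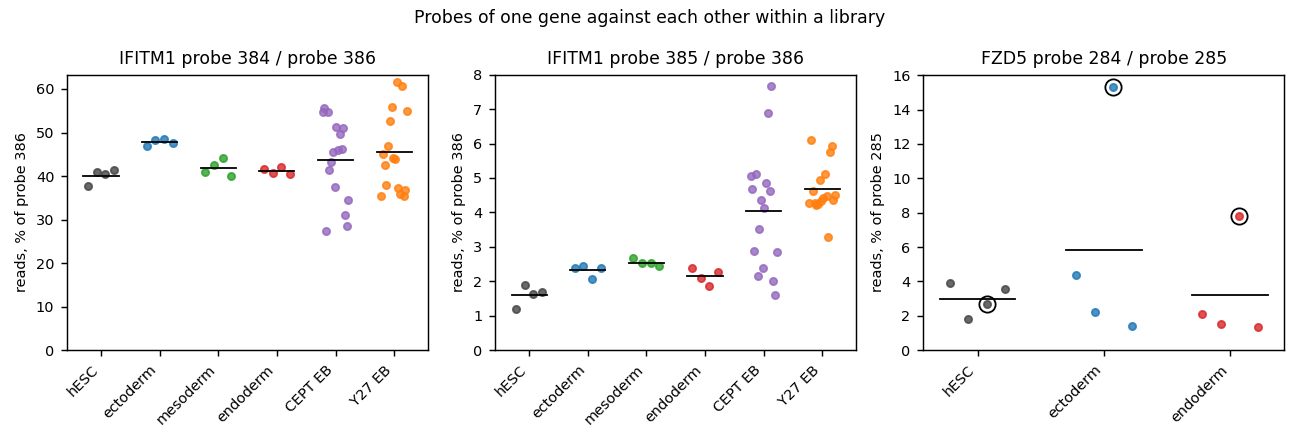
Reads of a weaker probe as a percentage of those of a stronger probe of the same gene, per library (points) with group means (bars); the circled points of FZD5 are replicate 3. IFITM1 probe 385 takes 1.18 to 1.89% in hESC and 3.28 to 6.11% in Y27 EB, and FZD5 probe 284 stands out in replicate 3 of ectoderm and endoderm.

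In ectoderm against hESC all 7 probes passed the test. The fit for ectoderm and mesoderm shared its count filter, scaling and spread with the endoderm libraries that chose the members. Without those libraries, an alternative added after seeing the data, all 7 probes were called in both comparisons with the same direction. Of the 903 probes tested 81.7% were called (edgeR, quasi-likelihood, adjusted by Benjamini and Hochberg over all probes at 0.05), so a call by itself does not set the members apart. FZD5 rose by 3.21 ± 0.25, 3.45 ± 0.85 and 2.53 ± 0.10 on the log2 scale (SE) for probes 283, 284 and 285, with adjusted p = 6.2e-09, 0.00203 and 1.1e-14. Without ectoderm replicate 3 the value of probe 284 was 2.38. IFITM1 fell by 1.96 ± 0.07, 1.67 ± 0.13 and 2.22 ± 0.08 for probes 384, 385 and 386, with adjusted p = 4.7e-15, 8.4e-10 and 5.7e-15. NPPB rose from 0 reads in every hESC library to 20, 21, 29 and 111 reads, a level at least 10.6-fold higher than 3 reads per library would give (adjusted p = 0.000127). Ectoderm replicate 4 decides much of that mean. Without that library the other 3 held 20 to 29 reads, and the bound was 6.25-fold. Of 25 probes with at least 500 CPM in endoderm and at most 1% of it in those 3 libraries, a set chosen after seeing the values, 21 were highest in replicate 4, LEFTY2 probe 428 among them at 131 CPM against 0.983 to 16.7. That choice limited only those 3 libraries and left replicate 4 free. NPPB probe 520 was itself in the set, and some genes entered with several probes. The count is therefore a description only. Any part of this pattern in the NPPB result was not tested.

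Mesoderm against hESC had FZD5 lower and NPPB higher. All 7 probes were called, beside 77.5% of 903 probes tested. FZD5 probe 285 fell by 5.51 ± 0.13 on the log2 scale (adjusted p = 1.0e-17), from 742 to 1099 reads per hESC library to 23 to 38 per mesoderm library. Probe 283 had 0 reads in every mesoderm library and was at least 4.33-fold lower than in hESC, where it had 7 to 13 reads. Probe 284 fell by 4.51 ± 1.71 (adjusted p = 0.0274), but rested on 0 to 6 reads per mesoderm library, and its adjusted p lay between 1.7e-21 (probes summed per gene) and 0.0812 over the alternatives. Leaving out hESC replicate 1 or 4 or any one mesoderm replicate ended its call. NPPB had 6 to 24 reads per mesoderm library and was at least 3.83-fold higher than the hESC limit (adjusted p = 0.00582). For IFITM1 no direction can be given: probes 384 and 386 were lower by 0.22 ± 0.07 and 0.28 ± 0.08 and probe 385 higher by 0.39 ± 0.13, yet with reference gene scaling probes 384 and 386 were higher by 0.53 and 0.47, and in CPM over all libraries the mean of probe 384 was 9133 in mesoderm and 8815 in hESC. The mean of probe 386 was 21821 CPM in mesoderm and 22046 in hESC.

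Both kinds of embryoid body had less FZD5 and less IFITM1 than hESC and had NPPB reads where hESC had none. In CEPT EB against hESC 73.4% of 940 probes were called, and in Y27 EB against hESC 74.1% of 963 probes; these comparisons share the hESC libraries. FZD5 probe 285 fell by 2.93 ± 0.27 in CEPT EB (adjusted p = 1.2e-09) and by 3.85 ± 0.22 in Y27 EB (adjusted p = 5.8e-13). All 16 libraries of each arm lay below all hESC libraries. IFITM1 probe 386 fell by 2.56 ± 0.44 in CEPT EB (adjusted p = 2.2e-05) and by 3.80 ± 0.45 in Y27 EB (adjusted p = 1.2e-07), again with every library below hESC. Probes 384 and 385 fell as well, by 2.46 ± 0.45 and 1.30 ± 0.48 in CEPT EB and by 3.59 ± 0.48 and 2.25 ± 0.46 in Y27 EB. NPPB had reads in 15 of 16 CEPT EB and 14 of 16 Y27 EB libraries, where the means lay above the hESC limit at least 8.30-fold (adjusted p = 0.00118) and at least 2.06-fold (adjusted p = 0.00741). Without CEPT EB replicate 15 that bound was 5.30-fold, and without Y27 EB replicate 15 it was 1.39-fold. FZD5 probes 283 and 284 were called lower in both arms, but 13 and 9 of the CEPT EB libraries and 14 and 12 of the Y27 EB libraries had 0 reads of them.

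CEPT EB against Y27 EB asked whether the survival treatment of the first day left a difference in lineage genes a week later, and no endoderm library entered it. NPPB, IFITM1 and FZD5 were all higher in CEPT EB. Of 5 member probes tested 4 were called, beside 23.6% of the 867 probes tested (92 higher and 113 lower). FZD5 probes 283 and 284 did not pass the filter on low counts. The shift of all probes matters here: with library totals alone the median probe moved by −0.31 on the log2 scale and 48 of 339 calls were higher, and with reference gene scaling it moved by −0.47 and 35 of 439 calls were higher.

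NPPB probe 520 had the largest member difference, 2.26 ± 0.63 on the log2 scale (adjusted p = 0.00724), from a CEPT EB mean of 11.9 ± 18.1 CPM and a Y27 EB mean of 2.96 ± 4.10 CPM (SD over 16 libraries). Of the CEPT EB libraries 12 of 16 lay above the Y27 EB median, and the arms overlapped. The counts were low, with a median of 29 reads in CEPT EB and 10 in Y27 EB. CEPT EB replicate 15 held 210 reads, the most of any, and without it the difference was 1.61 ± 0.59. NPPB then had an adjusted p of 0.0473, in a range of 0.000272 to 0.0671 over the alternatives. In Y27 EB the highest CPM, 17.4, was that of the shallow replicate 15 and stood on 8 reads.

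IFITM1 probe 386 was higher by 1.20 ± 0.38 (adjusted p = 0.0187), from means of 3612 ± 2845 CPM against 1568 ± 1258 CPM (SD over 16 libraries), and probe 384 by 1.09 ± 0.39 (adjusted p = 0.0399). Probe 385 differed by 0.90 ± 0.38 and was not called (adjusted p = 0.0787). Of the CEPT EB libraries 13 of 16 lay above the Y27 EB median for probe 386 and 15 of 16 for probe 384. CEPT EB replicate 7 was the highest for all 3 probes, at 12412 CPM for probe 386. Without it the CEPT EB mean of probe 386 was 3025 ± 1665 CPM (n = 15), the difference was 0.94 and the adjusted p 0.0542, in a range of 0.00411 to 0.0678 over the alternatives. Probe 384 without it was at 0.80 with an adjusted p of 0.111, in a range of 0.00831 to 0.165, and it lost its call without any one of 13 of the 32 libraries.

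FZD5 probe 285 was higher by 0.87 ± 0.21 (adjusted p = 0.00193), from means of 52.9 ± 26.3 CPM against 28.9 ± 10.9 CPM (SD over 16 libraries). Of the CEPT EB libraries 15 of 16 lay above the Y27 EB median, and 1 of the 16 Y27 EB libraries lay above the CEPT EB median. CEPT EB replicate 7 was again the highest, at 134.8 CPM, and without any single library the difference stayed between 0.71 and 0.98. Scaling by library totals alone gave 0.53, scaling by reference genes gave 0.37, and neither was called; the adjusted p ran from 0.000115 to 0.193 over the alternatives. Of the 4 called probes, only NPPB kept its call under all 4 alternative scalings; the replicate block ended it (1.83, adjusted p = 0.0671).

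**Figure D3:**
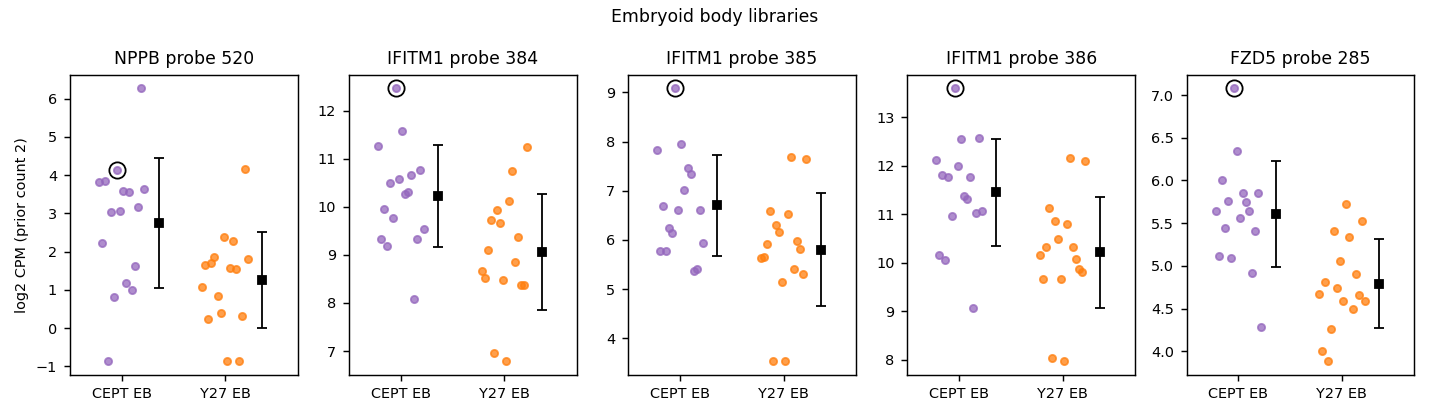
log2 CPM (vertical axis) of the 5 tested probes in the 16 CEPT EB and 16 Y27 EB libraries; points are libraries, squares with bars are means with SD, and the circle marks CEPT EB replicate 7. The arms overlap for every probe, and replicate 7 is the highest CEPT EB library for IFITM1 and FZD5.

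**Figure D4:**
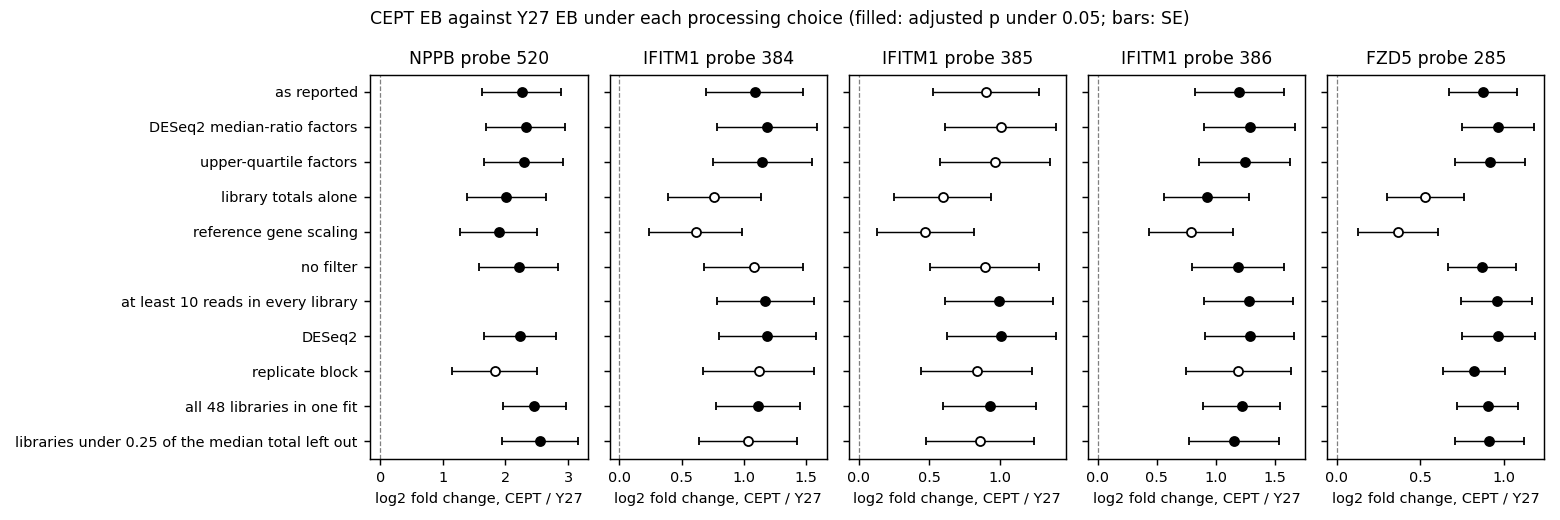
log2 fold change of CEPT EB over Y27 EB (horizontal axis) with its SE for the 5 tested probes under each processing choice (rows); filled points have an adjusted p under 0.05. Every point lies above 0, and FZD5 probe 285 loses its call with library totals alone (0.53) and with reference gene scaling (0.37).

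Markers of the cell types in which the members stood high were looked at beside these differences. The definitive endoderm list had 1 of 8 tested probes higher and 0 lower in CEPT EB (3 and 0 at an unadjusted p under 0.05, 1 and 0 by DESeq2), with a median log2 difference of 0.88 against −0.04 over all probes. The called probe was of LHX1, a transcription factor of early mesendoderm (1.34 ± 0.50, adjusted p = 0.0445). SOX17 probe 692 differed by 0.99 ± 0.68 and was not called (adjusted p = 0.339). The summed level of the 9 endoderm genes was 17.9 to 175 CPM in CEPT EB and 5.44 to 295.8 CPM in Y27 EB, and the list was 439110 to 487690 CPM in endoderm. The pluripotency list had 0 of 22 tested probes higher and 1 lower by edgeR (1 and 2 at an unadjusted p under 0.05, 1 and 0 by DESeq2), and its summed level was 5334 to 7225 CPM in CEPT EB and 5194 to 6984 CPM in Y27 EB. The heart muscle list had 0 of 5 tested probes higher and 1 lower, of ISL1, by edgeR (0 and 2 at an unadjusted p under 0.05, 0 and 0 by DESeq2). Its sum, 1124 to 2979 CPM in CEPT EB and 1618 to 2973 CPM in Y27 EB, was mostly ISL1, a transcription factor of heart progenitors and also of motor neurons, with means of 1822 and 2218 CPM. MYH6 was at 0 in every CEPT EB library and at 3.10 ± 11.4 CPM in Y27 EB, and TNNT2 was at 6.70 ± 8.27 and 20.6 ± 43.9 CPM (SD, n = 16). A trophoblast and amnion list of 4 genes had 0 of 4 tested probes higher and 1 lower by edgeR (0 and 3 unadjusted, 0 and 0 by DESeq2), and the one called was again of ISL1, which also made up most of its sum. Of its other genes TP63 was at 0 in every library, and CDX2 was at 0.313 ± 0.649 and 2.19 ± 7.57 CPM. The remaining gene of the list, with a higher mean than CDX2 in both arms, is not reported here. The part of these cell types in the member differences was not tested.

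Within an arm, libraries with more IFITM1 tended to hold more FZD5 in CEPT EB. Of 12 relations among the members and SOX17 in the 2 arms, this was the one that passed, with Pearson r = 0.724 (permutation p = 0.00221, adjusted 0.0265) and Spearman rho = 0.691 (permutation p = 0.0041, adjusted 0.0492) over 16 libraries. Without the 2 libraries farthest from the median of IFITM1, r was 0.494, and without CEPT EB replicate 7 it was 0.582, neither past the threshold. With scaling by library totals alone the relation was not past the threshold either. Of the 4 alternatives run, 3 did not keep it, so it depends on those libraries and on the scaling. In Y27 EB the same relation had r = 0.191 (permutation p = 0.480, adjusted 0.576) and rho = 0.144 (permutation p = 0.595, adjusted 0.793). The difference between the arms was not tested. For NPPB with IFITM1 in CEPT EB r was 0.590 (permutation p = 0.0173, adjusted 0.0690), with rho = 0.594 (permutation p = 0.0178, adjusted 0.107), and for NPPB with FZD5 r was 0.297 (permutation p = 0.263, adjusted 0.451), with rho = 0.388 (permutation p = 0.137, adjusted 0.302).

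FZD5 was read beside the genes of a chosen Wnt list that were on the panel, 9 in number besides FZD5. The list did not hold every gene of the panel linked to Wnt. WLS was outside it, with log2 ratios of endoderm over hESC of 7.57, 6.84 and 7.24 for probes 789, 790 and 1030. Among receptors and co-receptors, FZD7 fell in CEPT EB against Y27 EB while FZD5 rose: its 3 probes differed by −0.71 ± 0.11, −0.55 ± 0.08 and −0.61 ± 0.08, with adjusted p = 8.9e-06, 8.7e-06 and 2.2e-06 for probes 286, 287 and 288. The 3 FZD3 probes and the 2 probes of ROR2, a Wnt co-receptor, were not called. Of the inhibitors, SFRP1 probe 639 fell by 0.51 ± 0.10 (adjusted p = 0.000215), and its other 2 tested probes and that of FRZB were not called. In all, 4 of 16 probes of the list were lower and 0 higher in CEPT EB by edgeR (0 higher at an unadjusted p under 0.05 and 0 by DESeq2), a share of calls near the 23.6% over all probes, with a median of −0.13 against −0.04 over all probes. In ectoderm against hESC the list had 12 of 20 probes higher and 3 lower (median 0.80 against 0.14 over all probes), with FRZB, a secreted Wnt antagonist, up by 5.97 for probe 271, and all 3 MYC probes down; 81.7% of all probes were called there. In mesoderm, where 77.5% of all probes were called, 10 were higher and 10 lower, with T (Brachyury), a Wnt target and mesoderm factor, up by 10.28 for probe 719, and FZD3 probe 282 and SFRP1 probe 640 down by 1.63 and 2.12 in the same direction as FZD5. Of the 8 receptor probes besides those of FZD5, 5 were higher and 3 lower there. FZD7 and ROR2 went the other way from FZD5, with means of 1031 and 141 CPM in mesoderm against 559 and 59.9 in hESC. In endoderm, described only, summed levels were 4518 ± 228 CPM for FZD7, 2488 ± 195 for ROR2 and 15022 ± 2037 for SFRP1, against 559 ± 22.8, 59.9 ± 3.60 and 3330 ± 45.0 in hESC (SD, n = 4). FZD3 went the other way, at 35.4 ± 3.62 CPM in endoderm and 105 ± 9.10 in hESC.

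IFITM1 was read beside 4 other genes of the interferon list. None of their 7 tested probes was called in CEPT EB against Y27 EB by edgeR at an adjusted p under 0.05, beside 23.6% of all probes tested. DESeq2 called 0 of them too. At an unadjusted p under 0.05, 0 were higher and 1 lower. IDO1, an interferon-induced enzyme of tryptophan breakdown, had 133 ± 17.5 CPM in hESC, 18.1 ± 7.60 in endoderm and 0 in every ectoderm and mesoderm library. In both embryoid body arms against hESC, 6 of 8 probes of the list were lower and 0 higher by edgeR, by DESeq2 and at an unadjusted p under 0.05, a share of calls near the 73.4% and 74.1% over all probes. Of the natriuretic list NPPB alone was on the panel.

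By the likeness of group means, each member had other companions. Pearson r was taken over the 6 group means of log2 CPM, among 351 genes with at least 50 CPM in 1 group, as a description. NPPB was most like ROR2 (r = 0.989), EOMES, an endoderm and mesoderm transcription factor (0.959), and DIO3, a deiodinase (0.951). IFITM1 was most like KRT18, a keratin of simple epithelia (0.990), and ACTB, a cytoskeletal actin (0.958), was also among its 3 most like genes. FZD5 was most like HESX1, a homeobox gene (0.983), LIN28A, an RNA-binding protein of stem cells (0.980), and SFRP1 (0.976). Between members r was 0.730 for NPPB with FZD5, 0.530 for NPPB with IFITM1 and 0.525 for IFITM1 with FZD5, so none was near the top of another's list. ACTB is one of the genes used for reference gene scaling, and its mean was 114700 CPM in endoderm and 73625 in hESC.

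**Figure D5:**
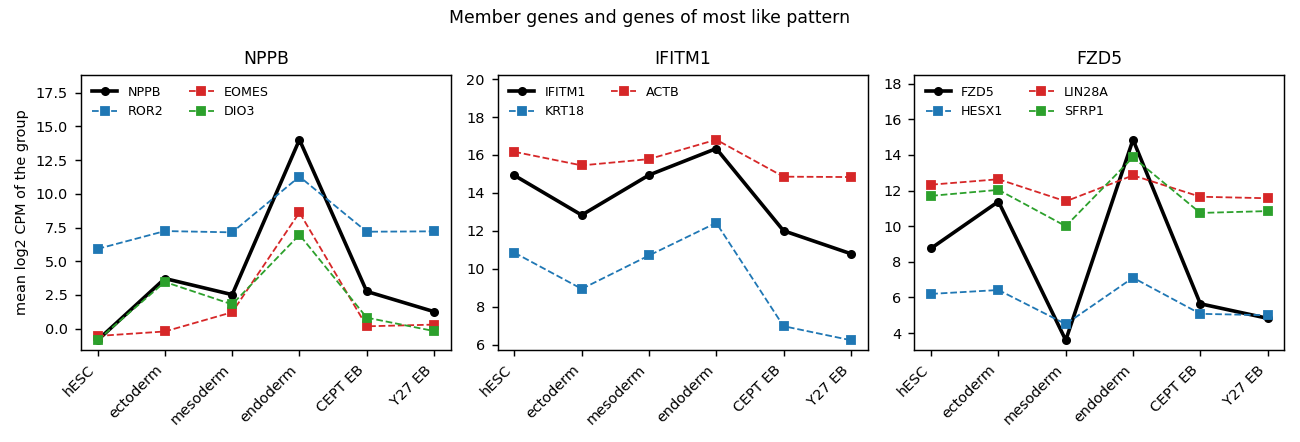
Mean log2 CPM of each member (black) and of genes most like it (dashed; 3 for NPPB and FZD5, 2 for IFITM1) in the 6 groups. NPPB and ROR2 peak in endoderm (16745 and 2488 CPM), KRT18 follows IFITM1 down to Y27 EB, and FZD5 shares its lowest group, mesoderm, with HESX1, LIN28A and SFRP1.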

How the data were processed

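The authors deposited raw read counts per probe pair, per the labels' protocols without normalization; the submitters' processing notes name hg38 and DESeq2, with no role given. One merged table was used; its 48 labelled columns equalled the sample tables, and 16 further columns matched no label and were left out. Members and gene lists were chosen with earlier results of these data known. CPM used TMM factors over all 48 libraries, and log2 CPM a prior count of 2. Tests were edgeR 4.0.16 (R 4.3.3) quasi-likelihood fits with robust dispersions and the default count filter, adjusted over all probes at 0.05, on the 2 groups of an embryoid body comparison or the 16 control libraries; the SE is the fold change over the root of F. Relations used 100000 permutations. Fits were tested on simulated counts. Replicate numbers did not pair libraries (median correlation 0.00415 between embryoid body arms). No libraries agreed within sampling noise. Reads carry no molecular identifiers here, so the floor of 3 reads covers counting error only. In each list and comparison up to 2 called changes each way, and the 3 most like genes, could be named; other names were chosen after values were seen. Alternatives included DESeq2 1.42.0, other scalings and filters, and leaving out each library. A few named items are not reported here.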

Additional observations from a re-analysis of the deposited data

Results flagged for a closer look

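In groups of 4 libraries, 1 library whose gap to the others exceeds the 95% limit of Dixon's test on log2 CPM is listed; chance gives about 1 in 20 groups. Of 26 groups looked at, 3 had one. NPPB probe 520 in ectoderm replicate 4 was at 34.0 CPM (111 reads), against 8.21 to 9.50 in the other 3 libraries. FZD5 probe 283 was at 62.0 CPM in ectoderm replicate 3, against 34.9 to 38.3, and at 407 CPM in endoderm replicate 3, against 297.7 to 308. FZD5 probe 284 was also highest in replicate 3 of both groups, at 361 and 1917 CPM, while probe 285 was lowest there, at 2356 and 24569 CPM.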

How the results depend on the processing

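Of 1079 recomputed values outside the endoderm description, 997 were kept. Tests and relations were kept if their direction and their side of the threshold stayed. Counts of calls were kept if they stayed within a set ratio of the main count. The causes of the others were not tested. Counts of calls in CEPT EB against Y27 EB were 339 with library totals alone, 439 with reference gene scaling and 112 for genes (fewer features); beside 92 of 205 calls higher, DESeq2 factors gave 107 of 182 and DESeq2 121 of 200. With at least 10 reads in every library, and with genes, fewer features were tested and calls were 426 and 333 in ectoderm, 395 and 316 in mesoderm, 426 and 325 in CEPT EB and 407 and 323 in Y27 EB, each against hESC.

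In CEPT EB against Y27 EB, log2 values that lost their call were 0.53 (FZD5 probe 285) and 0.76 (IFITM1 probe 384) with library totals alone, 0.37, 0.61 and 0.79 (FZD5 probe 285, IFITM1 probes 384 and 386) with reference gene scaling, and for IFITM1 probe 384 also 1.08 with no filter and 1.03 without shallow libraries. IFITM1 probe 385 gained a call without Y27 EB replicate 11 or 16, and at 0.99 with 10 reads everywhere, 1.01 in DESeq2, 0.93 with all libraries and 1.14 summed per gene. With the replicate block, although the numbers did not pair libraries, calls went from 205 to 167, and IFITM1 probes 384 and 386 (1.12 and 1.19) and NPPB (1.83) were not called; against hESC FZD5 probe 283 in CEPT EB (−3.77) and NPPB in Y27 EB (6.11) were not called. Leaving out 1 library gave 0.80 to 1.33, 0.58 to 1.09 and 0.94 to 1.39 for IFITM1 probes 384, 385 and 386.

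In mesoderm against hESC, IFITM1 probe 384 was at −0.13 with DESeq2 factors, −0.13 in DESeq2, −0.12 with no filter and −0.0427 with 10 reads everywhere, and turned to 0.12, 0.53 and 0.0196 with library totals, reference genes and all libraries. Probe 386 was at −0.11 with 10 reads everywhere and −0.0456 with all libraries, and turned to 0.0529 and 0.47 with library totals and reference genes. Probe 385 was at 0.63 with all libraries and turned to −0.0456 summed per gene, which is also the value for probes 384 and 386. FZD5 probe 284 was at −3.78 with reference genes. Leaving out 1 library gave −0.263 to −0.0257 and −0.330 to −0.0650 for IFITM1 probes 384 and 386 and −6.39 to −3.91 for FZD5 probe 284; without mesoderm replicates 2, 3 or 4 both IFITM1 probes lost their call. In CEPT EB against hESC, FZD5 probe 283 was at −2.43 with reference genes and −3.21 in DESeq2, and at −3.95 to −2.68 with 1 library left out (no call without hESC replicate 1, 3 or 4), and IFITM1 probe 385 at −0.995 with reference genes. In Y27 EB against hESC, NPPB was at 5.95 with all libraries. The relation of IFITM1 with FZD5 in CEPT EB was 0.670 with library totals, 0.494 without the 2 farthest libraries and 0.582 without replicate 7, which was added after seeing the data; that of IFITM1 with SOX17 in Y27 EB turned to −0.00243 with library totals.

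Low counts limit what can be said of NPPB outside endoderm, with at most 210 reads per library. The same holds for FZD5 probes 283 and 284 in mesoderm and embryoid bodies, with at most 23 reads per library.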
